A study of Mus musculus with 8 samples.

Results

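The 46 genes described here are genes of the cell cycle and DNA replication, measured in RNA of cells sorted as CD4+ effector T cells. Of them, 17 act in entry to S phase and in DNA replication and 26 in mitosis. The other 3 (Cks1b, Stmn1 and Hmgb2) serve more than 1 phase and were put in neither group. The 46 genes were chosen by name, with earlier results of these data known. All 46 were found among the 37411 genes of the count table, 2810417H13Rik under the older symbol of Pclaf. After a filter on low counts, 45 of them were among the 10000 genes tested, and Kif20a, a mitotic kinesin with at most 14 counts in any library, was not. The study asked how the transporter Mdr1 acts in T cells that meet intestinal bile acids. T cells with a congenic marker, transduced with the LMPd retrovirus, were put into Rag1-/- C57BL/6 mice, which make neither T nor B cells. About 10000 CD4+ effector cells per sample were sorted back 6 weeks later, from small intestine (lamina propria) or spleen. The retrovirus carried a short hairpin against Mdr1 (shMdr1) or, as control, against CD8 (shCD8), and the hosts had (Asbt+/+) or lacked (Asbt-/-) the ileal bile acid transporter Asbt, encoded by Slc10a2. Each of the 8 combinations of tissue, hairpin and host was measured in 1 library, so nothing was replicated within a combination and libraries of the other conditions stand in as replicates. Neither the age of the mice nor the number of animals behind a sample, or whether samples share animals, is stated in the labels. The p-values therefore reflect how far these libraries scatter, and part of that scatter may be technical. In the fit of tissue, hairpin and host over all 8 libraries, a host effect that differs between tissues also counts as scatter.

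A resting T cell is in G0. Cyclin E with CDK2 and the E2F factors switch on the genes that load the MCM helicase, make deoxynucleotides and copy DNA. Later, from S phase through G2, B-MYB and FOXM1 bound to the MuvB complex switch on a later set: cyclins A and B with CDK1, the Aurora and Polo kinases, the spindle motors and the checkpoint proteins, most of which are degraded again as mitosis ends. Replication genes and mitotic genes therefore peak at different times in 1 cycle, and both are low in resting cells. Since the libraries are bulk RNA, fewer dividing cells and less of these RNAs per dividing cell cannot be told apart.

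The promoters of both groups hold different short sequences, which is why some are shown. RefSeq start sites (build GRCm38.p6) were matched for 38 of the 46 genes, 14 of S phase and 22 mitotic, and 250 bases before to 50 bases after each start were searched on both strands. The CHR (cell cycle genes homology region, TTTGAA or TTCGAA) was in the window of 17 of 22 mitotic genes (77.3%), 2 of 14 S phase genes (14.3%) and 21.7% of 27025 genes in the promoter table. An E2F motif (spelled TTTGGCG, otherwise TTTCCCG, otherwise TTTGCCG, otherwise TTTCGCG) was in 6 of 14 S phase genes (42.9%), 4 of 22 mitotic genes (18.2%) and 7.65% of all. A CCAAT box (CCAAT) was in 10 of 14 S phase genes (71.4%), 20 of 22 mitotic genes (90.9%) and 41.1% of all, and all 17 mitotic genes with a CHR also had a CCAAT box, against 8.61% of all genes holding both. The E2F forms overlap each other in places, and a match is a description of letters, not a bound site. The 150 bases just upstream of the start are printed for 3 mitotic genes whose CPM values are described below and for 2 subunits of the MCM helicase, 5′ to 3′ on the gene's strand, with matches on either strand in capitals.
Mki67 (chr7:135716380-135716529, minus strand): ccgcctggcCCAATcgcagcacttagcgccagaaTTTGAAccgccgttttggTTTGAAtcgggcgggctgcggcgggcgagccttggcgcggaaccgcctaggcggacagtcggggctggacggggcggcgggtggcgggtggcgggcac
Top2a (chr11:99024190-99024339, minus strand): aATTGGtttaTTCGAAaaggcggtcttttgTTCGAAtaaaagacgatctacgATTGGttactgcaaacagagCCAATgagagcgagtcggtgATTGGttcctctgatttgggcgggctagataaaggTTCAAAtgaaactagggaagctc
Cdc20 (chr4:118437344-118437493, minus strand): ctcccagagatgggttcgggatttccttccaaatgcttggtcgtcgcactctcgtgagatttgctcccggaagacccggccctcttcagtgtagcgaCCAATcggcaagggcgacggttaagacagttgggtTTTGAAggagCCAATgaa
Mcm6 (chr1:128359706-128359855, minus strand): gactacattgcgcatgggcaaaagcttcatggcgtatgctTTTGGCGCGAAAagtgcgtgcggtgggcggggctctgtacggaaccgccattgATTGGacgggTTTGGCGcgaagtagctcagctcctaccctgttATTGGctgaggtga
Mcm5 (chr8:75109359-75109508, plus strand): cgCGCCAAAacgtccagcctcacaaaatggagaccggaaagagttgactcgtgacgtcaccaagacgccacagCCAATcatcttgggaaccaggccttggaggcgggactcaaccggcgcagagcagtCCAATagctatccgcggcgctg
In these stretches, the mitotic genes Mki67, Top2a and Cdc20 have CHR and CCAAT matches, and Mcm6 and Mcm5 have E2F and CCAAT matches. Stretches of other genes, not printed, differed. Those of Mcm3 and Mcm7 had CCAAT matches only, that of Mcm2 a CHR only, and those of Ccne1, E2f1, Tyms and Tk1 none. Several mitotic stretches, such as those of Ccnb1, Ccnb2 and Plk1, had CCAAT but no CHR matches.

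The libraries held 1685225 to 2767105 counts. The shCD8 small intestine Asbt+/+ library stands apart: 24.8% of the tested genes had no count in it, against 1.57 to 8.03% in the other 7. No count was seen for 15 of the 46 genes in it and for 7 in the shMdr1 small intestine Asbt+/+ library, against 0 to 2 in the other 6, so low genes carry little information in intestine of Asbt+/+ hosts. Mitochondrial genes took 17.6 and 26.8% of the counts in spleen of Asbt-/- hosts and 18.3% in shMdr1 small intestine Asbt+/+, against 6.63 to 8.62% in the remaining 5. Abcb1a, the gene of the targeted transporter, was at 19.996 (shMdr1) and 44.5 (shCD8) CPM in spleen of Asbt+/+ hosts, 19.8 and 29.5 CPM in spleens lacking host Asbt, and 36.9 and 96.0 CPM in small intestine of Asbt-/- hosts, where CPM is the count of a gene per 1000000 counts of its library. In small intestine of Asbt+/+ hosts it was at 13.6 CPM (23 counts, labelled shMdr1) and 8.69 CPM (21 counts, labelled shCD8). The target gene thus does not separate the labels in this pair. Cd8a, a gene of the control target, had 150 (shMdr1) and 0 (shCD8) counts in this pair. It had 31 and 7 counts in spleen of Asbt+/+ hosts, 0 and 0 in Asbt-/- spleen, and 70 and 57 in Asbt-/- intestine. All 10 CD4 T cell markers had counts in all 8 libraries. In spleen they summed to 7737 (shMdr1) and 7237 (shCD8) CPM in Asbt+/+ hosts and to 5828 and 6138 CPM in Asbt-/- hosts. In intestine the sums were 9412 and 9411 CPM in Asbt+/+ hosts and 8520 and 5885 CPM in Asbt-/- hosts. The sum was thus lower in Asbt-/- hosts in both tissues, and its part in the host results was not tested.

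Summed over the 17 S phase genes, CPM was highest in spleen of Asbt+/+ hosts and lowest in intestine of Asbt+/+ hosts and spleen of Asbt-/- hosts. The sums in spleen were 1652 (shMdr1) and 1326 (shCD8) CPM in Asbt+/+ hosts and 661 and 714 CPM in Asbt-/- hosts. In small intestine they were 569.7 and 682 CPM in Asbt+/+ hosts and 1105 and 1164 CPM in Asbt-/- hosts. Host thus went with opposite differences of the S phase sum in the 2 tissues, and neither pair of hosts overlapped. The 26 mitotic genes summed to 2465 and 1975 CPM in spleen of Asbt+/+ hosts and to 1020.4 and 1036 CPM in spleen of Asbt-/- hosts. In small intestine their sums were 408 and 453 CPM in Asbt+/+ hosts and 1044 and 676 CPM in Asbt-/- hosts. Apart from shMdr1 Asbt-/-, the intestinal libraries thus had lower mitotic sums than all 4 spleen libraries. The sum of shMdr1 Asbt-/- intestine was slightly above those of both Asbt-/- spleen libraries. The widest 95% Wilson interval of these sums was 2401 to 2531 CPM. It leaves out the spread between libraries. It also treats reads as independent, although they were counted without molecular identifiers, so it may be too narrow even for counting error.

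**Figure D1:**
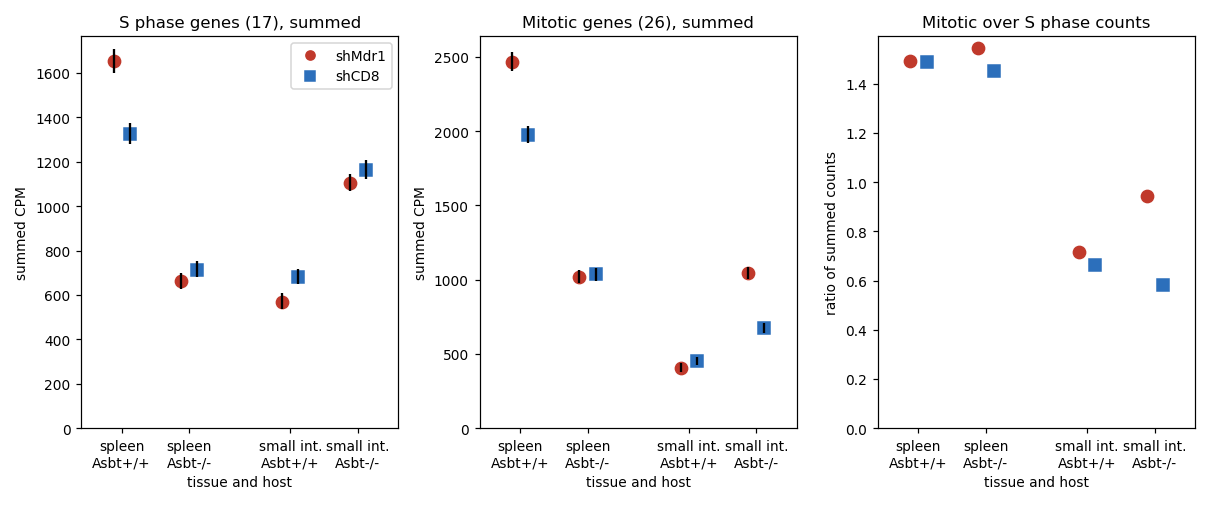
Summed CPM of the 17 S phase genes (left) and of the 26 mitotic genes (middle), and the ratio of mitotic to S phase counts (right), by tissue and host, 1 point per library (red circles shMdr1, blue squares shCD8, bars 95% Wilson intervals). All 4 spleen ratios lie between 1.45 and 1.54 and all 4 intestinal ratios between 0.581 and 0.945.

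The balance of mitotic to S phase RNA differed between the tissues in every library. Per S phase count, spleen libraries had 1.49 (shMdr1 Asbt+/+), 1.49 (shCD8 Asbt+/+), 1.54 (shMdr1 Asbt-/-) and 1.45 (shCD8 Asbt-/-) mitotic counts. Intestinal libraries had 0.717, 0.664, 0.945 and 0.581 in the same order. This ratio does not depend on library scaling, the tissues did not overlap, and the 4 spleen values stayed within a narrow range although the mitotic sums there ranged from 1020.4 to 2465 CPM. As a share of S phase and mitotic counts together, mitotic counts were 59.2 to 60.7% in spleen and 36.8 to 48.6% in intestine. The Wilson intervals of the nearest libraries were 57.6 to 60.8% and 47.3 to 49.9%. Such intervals leave out the spread between libraries. In intestine of Asbt-/- hosts they were 47.3 to 49.9% (shMdr1) and 35.3 to 38.2% (shCD8). The mean log2 ratio was 1.06 lower in intestine (log2 difference of -1.06), -1.03 without shCD8 small intestine Asbt+/+, and -1.29 when each gene weighed equally as log2(CPM + 1). In other genes of both processes, from the pathway lists given below, the ratio of mitotic to replication counts was 1.02, 1.10, 1.09 and 0.982 in spleen and 0.673, 0.646, 0.836 and 0.647 in intestine in the same library order, again without overlap and with a smaller log2 difference of -0.59. No test is given, because the groups of genes were chosen with earlier results known.

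**Figure D2:**
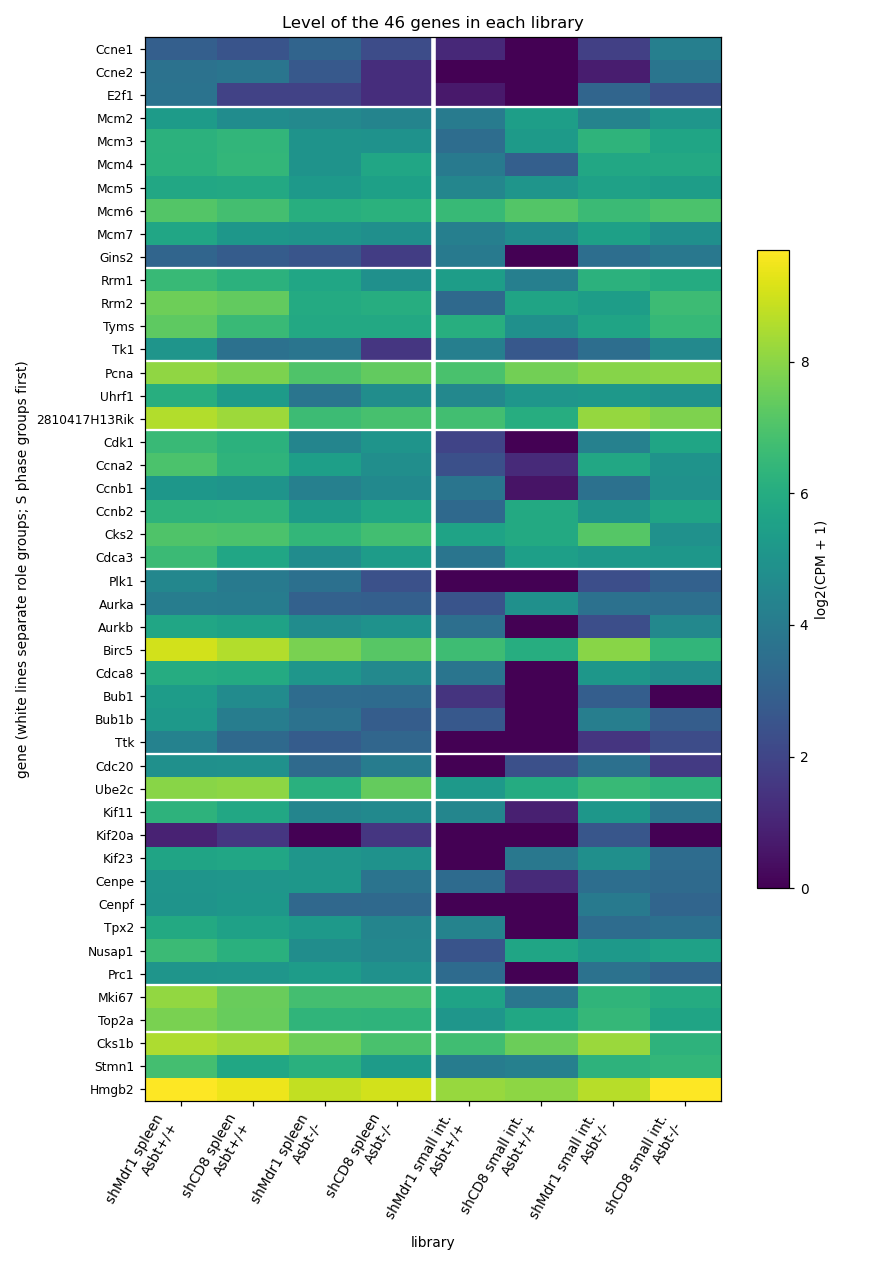
Level of each of the 46 genes (rows, by role, S phase first and the 3 unassigned genes last) in each library (columns, spleen left of the white line), as log2(CPM + 1) from dark (0) to yellow. Dark cells gather among the mitotic rows of the 2 small intestine Asbt+/+ libraries, where 7 and 15 of the 46 genes had no count.

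Among the S phase genes, the entry switch had few counts. Ccne1, a cyclin E that activates CDK2, was at 3.81 to 7.68 CPM in spleen, and in small intestine at 1.19 (shMdr1 Asbt+/+), 0 (shCD8 Asbt+/+), 2.53 (shMdr1 Asbt-/-) and 17.3 (shCD8 Asbt-/-) CPM. Ccne2, the other cyclin E, was at 11.6 and 12.6 CPM in spleen of Asbt+/+ hosts (shMdr1 first, here and below), 5.49 and 1.43 in Asbt-/- spleen, 0 and 0 in Asbt+/+ intestine, and 0.723 and 12.6 in Asbt-/- intestine. E2f1, an activating E2F factor, was at 11.997 and 2.81 CPM in spleen of Asbt+/+ hosts, 2.74 and 1.43 in Asbt-/- spleen, 0.593 and 0 in Asbt+/+ intestine, and 7.95 and 4.21 in Asbt-/- intestine. In intestine of Asbt+/+ hosts, these 3 genes together had 3 counts, so that their low level there is little more than a lack of detection. For Ccne2, intestine of Asbt-/- hosts had 32 counts and intestine of Asbt+/+ hosts none. Set against a floor of 3 counts over both Asbt+/+ libraries, the pooled CPM was at least 8.51-fold higher. Of the 32 counts, 30 were in shCD8 and 2 in shMdr1, so this bound rests on 1 library.

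The 7 helicase genes (Mcm2 to Mcm7, subunits of the ring that unwinds DNA, and Gins2, part of its activator) summed to 438 and 397 CPM in spleen of Asbt+/+ hosts, 222 and 249 in Asbt-/- spleen, 185 and 283 in Asbt+/+ intestine, and 351 and 346 in Asbt-/- intestine. Mcm6 was at 136 and 109 CPM in spleen of Asbt+/+ hosts, 65.9 and 72.4 in Asbt-/- spleen, 92.0 and 138 in Asbt+/+ intestine, and 97.2 and 123 in Asbt-/- intestine. Its mean was 95.9 ± 33.0 CPM in spleen and 113 ± 21.8 in intestine (SD, n = 4 each), with overlapping groups. Mcm4 was at 72.4 and 84.3 CPM in spleen of Asbt+/+ hosts, 30.7 and 52.4 in Asbt-/- spleen, 14.8 and 6.62 in Asbt+/+ intestine, and 55.7 and 56.8 in Asbt-/- intestine. Neither tissue's hosts overlapped for Mcm4, with opposite directions in the 2 tissues. Mcm3 had 74.7 and 81.5 CPM in spleen of Asbt+/+ hosts, 30.7 and 29.5 in Asbt-/- spleen, 10.1 and 38.0 in Asbt+/+ intestine, and 77.3 and 50.9 in Asbt-/- intestine, the same arrangement as Mcm4. Mcm5 had 54.7 and 56.2 CPM in spleen of Asbt+/+ hosts, 35.7 and 44.7 in Asbt-/- spleen, 20.8 and 32.7 in Asbt+/+ intestine, and 45.5 and 40.8 in Asbt-/- intestine, a narrower spread in the same arrangement. Mcm2, Mcm7 and Gins2 were at 0 to 52.9 CPM, with 0 only for Gins2 in shCD8 small intestine Asbt+/+.

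Among genes of deoxynucleotide synthesis, Rrm2, the regulated subunit of ribonucleotide reductase, stood at 187 and 164 CPM in spleen of Asbt+/+ hosts, 60.4 and 64.3 in Asbt-/- spleen, 8.90 and 49.6 in Asbt+/+ intestine, and 41.2 and 100.2 in Asbt-/- intestine. Spleen of Asbt+/+ hosts was thus above all other libraries for Rrm2, while the intestinal hosts overlapped. Rrm1, the large subunit of the same enzyme, was at 92.9 and 74.5 CPM in spleen of Asbt+/+ hosts, 52.7 and 28.1 in Asbt-/- spleen, 41.5 and 17.4 in Asbt+/+ intestine, and 74.4 and 61.9 in Asbt-/- intestine. Tyms, thymidylate synthase, was at 155 and 95.1 CPM in spleen of Asbt+/+ hosts, 57.1 and 57.1 in Asbt-/- spleen, 65.9 and 28.5 in Asbt+/+ intestine, and 50.2 and 88.8 in Asbt-/- intestine. Hosts did not overlap in either tissue for Rrm1, and overlapped in intestine for Tyms. Tk1, thymidine kinase, was at 1.90 to 32.0 CPM with overlapping groups in both tissues.

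At the replication fork, Pcna, the sliding clamp of the DNA polymerases, was at 273 and 220.1 CPM in spleen of Asbt+/+ hosts, 129.5 and 166 in Asbt-/- spleen, 119 and 200.2 in Asbt+/+ intestine, and 247 and 254 in Asbt-/- intestine. The tissue means of Pcna were 197 ± 62.9 CPM in spleen and 205 ± 62.0 CPM in intestine (SD, n = 4 each), so the spread within a tissue exceeded the difference between tissues. 2810417H13Rik, which encodes a factor bound to PCNA, had 377 and 305 CPM in spleen of Asbt+/+ hosts, 98.3 and 116 in Asbt-/- spleen, 108 and 65.3 in Asbt+/+ intestine, and 285 and 226 in Asbt-/- intestine. Its hosts were well apart in both tissues and in opposite directions. Uhrf1, which carries DNA methylation over to the new strand, was at 12.6 to 67.5 CPM in spleen and 22.0 to 35.4 CPM in intestine, and its intestinal hosts overlapped.

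Among the mitotic genes, Ccna2, cyclin A, was at 123 and 78.7 CPM in spleen of Asbt+/+ hosts, 43.9 and 26.7 in Asbt-/- spleen, 4.15 and 1.24 in Asbt+/+ intestine, and 56.0 and 30.7 in Asbt-/- intestine. Intestine of Asbt+/+ hosts thus had 10 Ccna2 counts in all, and intestine of Asbt-/- hosts 228. Ccnb2, a mitotic cyclin B, was at 39.0 to 78.7 CPM in spleen and at 8.90, 57.9, 30.4 and 49.2 CPM in intestine (shMdr1 and shCD8 of Asbt+/+, then of Asbt-/- hosts), with overlapping tissues. Cks2, a small CDK partner, was at 84.5 to 128 CPM in spleen and at 48.7, 57.9, 142 and 28.6 CPM in intestine in that order, so its highest and lowest values were both in intestine of Asbt-/- hosts. Cdca3, an activator of mitotic entry, was at 25.3 to 96.0 CPM in spleen and 12.5 to 43.4 CPM in intestine. Cdk1, the mitotic kinase, and Ccnb1, its main cyclin, which were picked out after their values were seen, were at 20.3 to 93.3 and 17.6 to 33.8 CPM in spleen. In intestine, in the same order, Cdk1 was at 2.97, 0, 18.4 and 50.5 CPM and Ccnb1 at 12.5, 0.414, 11.2 and 29.0 CPM, so both genes overlapped between tissues through shCD8 small intestine Asbt-/-.

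The mitotic kinases and their partners were lower in most intestinal libraries. Birc5, survivin, a subunit of the Aurora B complex, was at 518 and 378 CPM in spleen of Asbt+/+ hosts, 214 and 144 in Asbt-/- spleen, 103 and 64.9 in Asbt+/+ intestine, and 249.7 and 82.1 in Asbt-/- intestine. Aurkb, the kinase of that complex, was at 52.9 and 47.3 CPM in spleen of Asbt+/+ hosts, 25.3 and 30.0 in Asbt-/- spleen, 10.7 and 0 in Asbt+/+ intestine, and 3.98 and 21.9 in Asbt-/- intestine. All 4 intestinal libraries were below all 4 spleen libraries for Aurkb, and only shMdr1 Asbt-/- overlapped spleen for Birc5. Cdca8, borealin, the next subunit, was at 22.9 to 63.5 CPM in spleen and at 12.5, 0, 34.3 and 25.7 CPM in intestine, where the hosts did not overlap. Aurka, the centrosomal Aurora kinase, was at 6.66 to 16.4 CPM in spleen and at 4.75, 28.5, 11.2 and 10.5 CPM in intestine, and its highest value was in shCD8 small intestine Asbt+/+, the library where 11 of the 26 mitotic genes had no count. Plk1, Bub1, Bub1b and Ttk, kinases of mitotic entry and of the spindle checkpoint, were at 4.28 to 40.0 CPM in spleen and 0 to 16.6 CPM in intestine.

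Ube2c, the ubiquitin-conjugating enzyme of the anaphase promoting complex, was at 248 and 262 CPM in spleen of Asbt+/+ hosts, 70.8 and 170.4 in Asbt-/- spleen, 36.2 and 60.8 in Asbt+/+ intestine, and 92.9 and 77.0 in Asbt-/- intestine. Cdc20, the activator of that complex, was at 28.0 and 29.0 CPM in spleen of Asbt+/+ hosts, 9.33 and 15.7 in Asbt-/- spleen, 0 and 4.14 in Asbt+/+ intestine, and 10.8 and 2.10 in Asbt-/- intestine. For both genes, spleen of Asbt+/+ hosts was above every other library.

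Of the spindle genes, Kif23, a kinesin of the central spindle, was at 50.2 and 52.0 CPM in spleen of Asbt+/+ hosts, 33.5 and 29.5 in Asbt-/- spleen, 0 and 13.6 in Asbt+/+ intestine, and 27.5 and 9.68 in Asbt-/- intestine. Tpx2, the activator of Aurora A on the spindle, was at 20.5 to 59.1 CPM in spleen and at 19.0, 0, 9.76 and 10.9 CPM in intestine. The tissues did not overlap for either gene. Kif11, the kinesin that pushes the spindle poles apart, was at 20.3 to 76.9 CPM in spleen and 20.8, 0.827, 34.0 and 13.05 CPM in intestine. Nusap1, a microtubule bundler, was at 21.4 to 96.0 CPM in spleen and at 4.75, 51.3, 36.1 and 46.3 CPM in intestine, with overlapping tissues in both cases. Cenpe, Cenpf and Prc1, proteins of the kinetochore and midzone, were at 8.78 to 40.1 CPM in spleen and 0 to 14.8 CPM in intestine.

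Mki67, the proliferation antigen that coats mitotic chromosomes, was at 279 and 179 CPM in spleen of Asbt+/+ hosts, 111 and 110.4 in Asbt-/- spleen, 48.1 and 12.8 in Asbt+/+ intestine, and 81.3 and 62.3 in Asbt-/- intestine. Top2a, the topoisomerase that untangles sister chromatids, was at 212 and 173 CPM in spleen of Asbt+/+ hosts, 80.1 and 78.5 in Asbt-/- spleen, 33.2 and 53.8 in Asbt+/+ intestine, and 87.5 and 49.7 in Asbt-/- intestine. The tissues did not overlap for Mki67, and for Top2a only shMdr1 Asbt-/- intestine reached the spleen of Asbt-/- hosts.

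Of the 3 genes in neither group, Stmn1, stathmin, a microtubule regulator, was at 112 and 53.4 CPM in spleen of Asbt+/+ hosts, 69.7 and 39.0 in Asbt-/- spleen, 16.0 and 17.8 in Asbt+/+ intestine, and 76.3 and 85.02 in Asbt-/- intestine. Hmgb2, a chromatin protein, was at 829.6 and 708 CPM in spleen of Asbt+/+ hosts, 442 and 527 in Asbt-/- spleen, 293 and 267 in Asbt+/+ intestine, and 399 and 820.3 in Asbt-/- intestine. Cks1b, a CDK partner, was at 120.0 to 363 CPM in spleen and at 105, 182, 301 and 76.2 CPM in intestine. Intestinal hosts did not overlap for Stmn1 and Hmgb2, and did for Cks1b.

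Between tissues, over both hosts, the mitotic genes were mostly lower in intestine, the S phase genes went opposite ways in the 2 hosts, and no single gene passed the test. In edgeR's quasi-likelihood test with Benjamini-Hochberg adjustment over all 10000 genes, none of the 45 was called, against 0.62% of all genes (0.51% higher and 0.11% lower). At an unadjusted p under 0.05, 8 of the 45 were lower in intestine and none higher, against 3.68 and 4.77% of all genes, and all 8 were mitotic. The fitted log2 fold change (intestine over spleen) was below 0 for 24 of 25 mitotic genes, 12 of 17 S phase genes and 5885 of all 10000 tested genes. Its median was -1.75 for mitotic and -0.34 for S phase genes, against -0.17 over all tested genes. These medians are over hosts that differ, as the matched pairs described below show. The spread in this fit also holds the difference of the host effect between tissues. The exception among mitotic genes was Aurka. Mki67 came closest, with a log2 fold change of -1.79 ± 0.49 (SE, edgeR adjusted p = 0.221). Ube2c followed with -1.38 ± 0.43 (adjusted p = 0.311) and Birc5 with -1.31 ± 0.43 (adjusted p = 0.375). On the replication side, Rrm2 had -1.35 ± 0.63 (adjusted p = 0.613), Mcm6 0.31 ± 0.27 and Pcna 0.10 ± 0.31. The DESeq2 Wald test called Mki67 (-1.82, adjusted p = 0.0128) and Bub1 (-4.38, adjusted p = 0.0125), against 2.62% of all genes, and edgeR without the low count filter called Mki67, Birc5 and Ube2c, against 0.939%, while limma-voom called none.

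**Figure D3:**
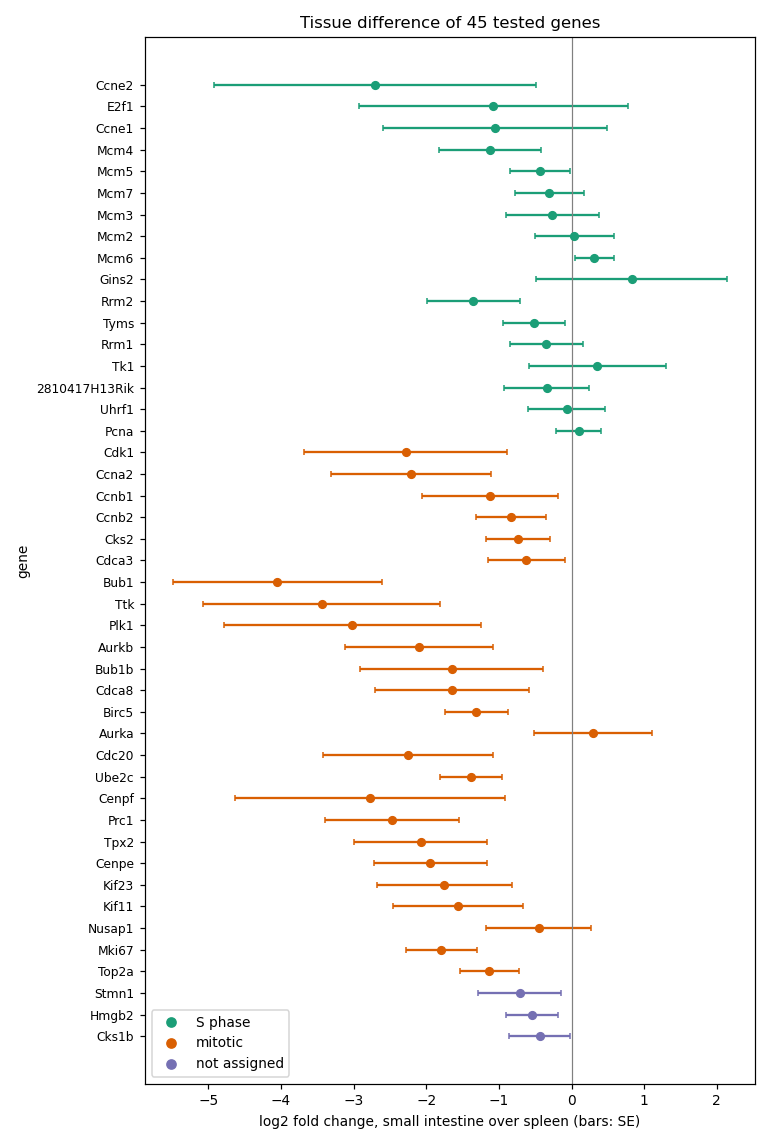
Fitted log2 fold change of small intestine over spleen for the 45 tested genes in the fit of all 8 libraries (points; bars are SE), S phase in green, mitotic in orange, unassigned in purple. Mitotic genes other than Aurka lie left of 0, with a median of -1.75, and S phase genes lie on both sides, with a median of -0.34.

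In CPM, all 4 intestinal libraries were below all 4 spleen libraries for 8 of the 45 genes (17.8%), against 4.84% of all tested genes: Aurkb, Bub1, Ttk, Kif23, Cenpe, Tpx2, Prc1 and Mki67, all mitotic. None was above in all, against 2.83% of all genes. Leaving out both small intestine Asbt+/+ libraries, which can only keep or raise such a count, gave 8 as well, while the share of all genes rose to 12.1%. In summed CPM, the tissues were further apart in Asbt+/+ than in Asbt-/- hosts, a difference not tested on the sums. Summed CPM of the mitotic genes was 5.16-fold lower in intestine than in spleen of Asbt+/+ hosts (431 and 2220.2 CPM, means of 2 libraries) and 1.20-fold lower in Asbt-/- hosts (860.4 and 1028 CPM). Summed CPM of the S phase genes was 2.38-fold lower in intestine of Asbt+/+ hosts (626 and 1489 CPM) and 1.65-fold higher in intestine of Asbt-/- hosts (1134 and 687 CPM). Medians by matched pair of libraries followed this: the mitotic median log2 ratio was -2.64 (shMdr1) and -3.99 (shCD8) in Asbt+/+ hosts and 0.04 and -0.44 in Asbt-/- hosts, and the S phase median was -1.57 and -1.70 in Asbt+/+ and 0.52 and 0.76 in Asbt-/- hosts. The fitted medians moved when a library was left out, for mitotic genes to -1.06 without shCD8 small intestine Asbt+/+, and for S phase genes to between -0.72, without shCD8 spleen Asbt-/-, and 0.00, without shMdr1 small intestine Asbt+/+.

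Between hosts, the genes went opposite ways in the 2 tissues, and again no single gene passed. In spleen, both Asbt-/- libraries were below both Asbt+/+ libraries in CPM for 40 of 45 genes (88.9%), against 28.6% of all genes, and above for none, against 11.8% of all genes. In small intestine, both Asbt-/- libraries were above both Asbt+/+ libraries for 21 of 45 (46.7%), against 23.3% of all genes, and below for none, against 11.1%. Both arrangements held for 19 of 45 (42.2%), against 6.30% of all genes, 9 of them S phase genes, 9 mitotic genes and Hmgb2. Summed S phase CPM was 2.17-fold lower in Asbt-/- than in Asbt+/+ hosts in spleen and 1.81-fold higher in intestine. Summed mitotic CPM was 2.16-fold lower in spleen and 2.00-fold higher in intestine. Each host comparison of a tissue rests on 2 libraries against 2.

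In the fit with separate effects per tissue, the host effect in intestine (log2, Asbt-/- over Asbt+/+) was above 0 for 42 of 45 genes. It was above 0 for 6164 of all 10000 tested genes. Its median was 1.33 for S phase and 1.77 for mitotic genes, against 0.36 over all tested genes. The 4 tested genes with no count in intestine of Asbt+/+ hosts were Ccne2, Plk1, Ttk and Cenpf. Setting them to their lower bounds could not move either median, as those bounds (log2 of 1.90 to 4.00) all lie above both. Genes with few counts there were left at their fitted values. The mitotic median was 2.85 without shMdr1 small intestine Asbt-/-. No gene of the 45 was called by edgeR, against 0% of all genes, and 11 were higher and none lower at an unadjusted p under 0.05, against 5.45 and 1.98% of all genes. Ccna2 had the smallest p, with a log2 effect of 4.11 ± 0.65 (SE, edgeR adjusted p = 0.624). Stmn1 was at 2.26 ± 0.47, 2810417H13Rik at 1.60 ± 0.33 and Mcm4 at 2.49 ± 0.60, each with an edgeR adjusted p of 0.624. Cenpf, with 60 counts in intestine of Asbt-/- hosts and none in Asbt+/+ hosts, was at least 16.0-fold higher in CPM by the same floor as Ccne2. DESeq2 called Ccna2 (4.08, adjusted p = 0.00179) and Cdk1 (4.80, adjusted p = 0.0165), against 0.683% of all genes, and limma-voom called none. Leaving out 1 intestinal library leaves a spread taken from spleen alone, and edgeR then called much of the table. It called 26 of the cell cycle genes without shMdr1 Asbt+/+ (37.5% of all genes tested), 18 without shCD8 Asbt+/+ (9.25%), 25 without shMdr1 Asbt-/- (37.5%) and 18 without shCD8 Asbt-/- (9.49%).

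The host effect in spleen was below 0 for 43 of 45 genes, with a median of -0.89 for S phase and -1.02 for mitotic genes, against -0.03 over all tested genes. None was called by edgeR, against 0% of all genes, and 4 were lower at an unadjusted p under 0.05 (2810417H13Rik, Birc5, Rrm2 and Ccna2) and none higher, against 0.52 and 0.5% of all genes. 2810417H13Rik was at -1.47 ± 0.33, Rrm2 at -1.29 ± 0.44 and Birc5 at -1.14 ± 0.36 (log2, SE, edgeR adjusted p = 1 for each). The 2 genes above 0 were Ccne1 (0.15 ± 1.84) and Prc1 (0.26 ± 1.24). DESeq2 called none and limma-voom called none. Without both small intestine Asbt+/+ libraries, the spread comes from spleen alone, with fewer residual degrees of freedom than the 2 of the full fit. The log2 effects of 2810417H13Rik, Nusap1 and Rrm2 were then -1.48, -1.62 and -1.30. In that fit edgeR called 11 of the genes, all lower, against 1.26% of all genes. It called 9 to 11 when any 1 intestinal library was left out, and the 11 came without shCD8 Asbt+/+ (1.3% of all genes), 10 without shMdr1 Asbt+/+ (1.32%), 10 without shCD8 Asbt-/- (1.29%) and 9 without shMdr1 Asbt-/- (1.31%).

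**Figure D4:**
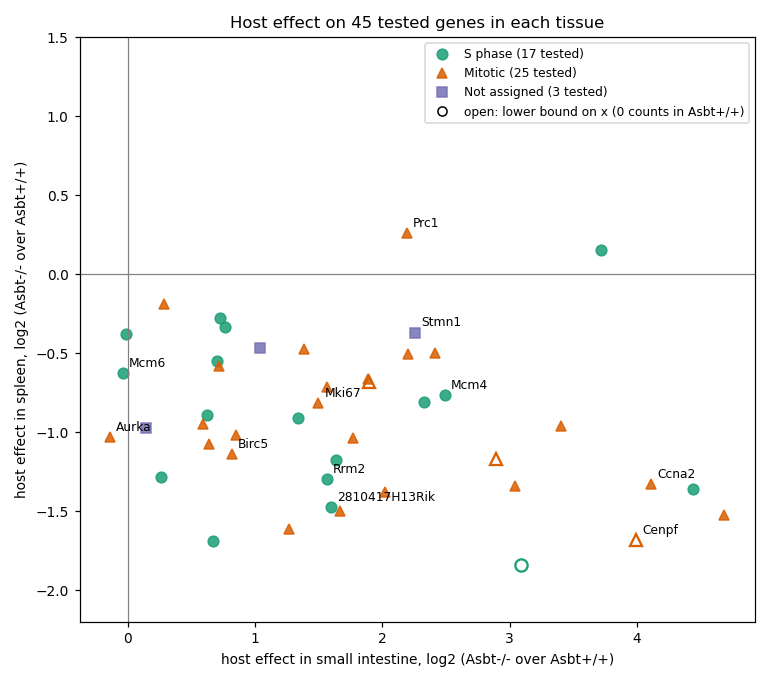
Fitted host effect (log2, Asbt-/- over Asbt+/+) in small intestine (x axis) and in spleen (y axis) for the 45 tested genes, with open symbols at the lower bound on the x axis for 4 genes with no count in intestine of Asbt+/+ hosts. Most points lie right of 0 and below 0, as 42 of 45 were above 0 in intestine and 43 of 45 below 0 in spleen.

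The difference of the host effect between the tissues was above 0 for all 45 genes in the edgeR fit, with a median of 2.36 for S phase and 2.70 for mitotic genes (2.58 with the 4 undetected genes at their bounds), against 0.46 over all tested genes. None was called, against 0% of all genes, while 19 were above 0 and none below at an unadjusted p under 0.05, against 3.28 and 1.03% of all genes. 2810417H13Rik had 3.07 ± 0.46 (SE), Ccna2 5.44 ± 0.84 and Rrm2 2.86 ± 0.64, each with an edgeR adjusted p of 0.937. DESeq2 called 2810417H13Rik (2.98, adjusted p = 0.00544), Ccna2 and Cdk1, against 0.288% of all genes. Without 1 intestinal library edgeR called 29 of the genes (shMdr1 Asbt+/+ left out, 29.5% of all genes tested), 23 (shCD8 Asbt+/+, 7.99%), 27 (shMdr1 Asbt-/-, 29.5%) or 23 (shCD8 Asbt-/-, 8.19%). Over both tissues in 1 additive fit, the median host effect was 0.13 for S phase and 0.18 for mitotic genes, against 0.11 over all genes, and none was called (0% of all genes) or had an unadjusted p under 0.05, against 1.31% of all genes higher and 1.4% lower. DESeq2 called none of them.

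Other measures also differed between the libraries, some of them between hosts without overlap and others with overlap. In spleen, 15 markers of neutrophils and their granule precursors summed to 8300 and 7493 CPM in Asbt+/+ hosts and to 2736 and 865 CPM in Asbt-/- hosts, with 3 to 5 of 15 at 0. S100a8, S100a9 and Camp made up most of these sums. Elane, Mpo, Prtn3 and Ctsg, which mark dividing precursors, had 0 to 9 counts in each spleen library. Other genes of the list were lower in spleen of Asbt-/- hosts, as the cell cycle genes were. Camp was at 618 and 615 CPM in Asbt+/+ and 283 and 19.99 CPM in Asbt-/- spleen (shMdr1 first). In the same order, Ngp was at 172, 184, 144 and 5.71 CPM, Ltf at 50.7, 21.5, 7.68 and 9.05 CPM. Chil3 was at 36.9, 56.7, 7.14 and 0 CPM, while Retnlg, Mmp8 and Fcnb overlapped between hosts. Whether dividing precursors were present was not tested. The cells were sorted as CD4+, and the part of these markers in the spleen result was not tested. In intestine the same list summed to 179 and 116 CPM in Asbt+/+ hosts and 9.76 and 68.6 CPM in Asbt-/- hosts, the reverse of the direction of the cell cycle genes there. Erythroid markers summed to 2453 and 5681 CPM in spleen of Asbt+/+ hosts, 37207 and 1123 CPM in spleen of Asbt-/- hosts, and 97.2 to 155 CPM in intestine, with 0 to 3 of 14 at 0 in spleen and 5 to 7 in intestine. The high value was in shMdr1 spleen Asbt-/-, and the part of erythroid markers in the spleen result was not tested. Epithelial markers summed to 745 and 288 CPM in intestine of Asbt+/+ hosts and 54.2 and 52.2 CPM in Asbt-/- hosts, with 4 and 4, then 9 and 7 of 15 at 0; their part in the intestinal result was not tested. In spleen they summed to 158 and 52.5 CPM in Asbt+/+ and 0 and 9.05 CPM in Asbt-/- hosts. Myeloid and antigen presenting markers summed to 546 and 326 CPM in spleen of Asbt+/+ hosts and 152 and 193 CPM in spleen of Asbt-/- hosts, with 1 to 4 of 11 at 0, and to 516 and 944, then 641 and 1263 CPM in intestine. Across tissues, edgeR called 6 of 9 tested neutrophil and 3 of 10 tested erythroid markers lower in intestine, and 2 of 10 epithelial and 2 of 8 myeloid markers higher, against 0.11% of all genes lower and 0.51% higher. The part of these markers in the tissue result was not tested. Counting without hemoglobin, mitochondrial and Rn18s-rs5 counts, 32 of 45 genes kept both spleen Asbt-/- libraries below both Asbt+/+ libraries, against 14.6% of all genes, and 21 kept the intestinal arrangement, against 21.0%. The log2 ratios of the spleen sums were then -0.79 (S phase) and -0.78 (mitotic), against -1.12 and -1.11 with all counts. Without shCD8 small intestine Asbt+/+, which can only keep or raise it, the intestinal count was 32 of 45, against 38.6% of all genes by the same rule.

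The hairpin made no difference to these genes that passed a test. In the additive fit, 31 of 45 had a log2 fold change (shMdr1 over shCD8) above 0, against 5512 of all 10000 genes. Medians were 0.07 for S phase and 0.38 for mitotic genes, against 0.09 over all genes, and none was called, against 0% of all genes. The medians turned to -0.23 and -0.077 without shMdr1 spleen Asbt+/+ and rose to 0.52 and 1.17 without shCD8 small intestine Asbt-/-. Birc5 was the only one with an unadjusted p under 0.05 (1.02 ± 0.41, edgeR adjusted p = 0.999), against 1.58% of all genes higher and 1.41% lower. Birc5 was higher in the library labelled shMdr1 in all 4 matched pairs. These are the libraries that gave its p, so the pairs are not separate support. DESeq2 and limma-voom called none in any hairpin comparison. In spleen alone the medians were 0.45 for S phase and 0.26 for mitotic genes, with none called (0% of all genes) and none at an unadjusted p under 0.05, against 0.3% of all genes higher and 0.32% lower. In intestine alone they were 0.04 and 1.02, none was called (0% of all genes), and at an unadjusted p under 0.05 4 were higher and 1 lower, against 2.86 and 1.95% of all genes. Rrm2 was the lower one (-1.63 ± 0.47, edgeR adjusted p = 0.785), with 8.90 CPM in the library labelled shMdr1 and 49.6 CPM in the library labelled shCD8 of Asbt+/+ hosts. The difference of the hairpin effect between tissues had a median of -0.22 for S phase and 0.73 for mitotic genes, none was called (0% of all genes), and 1 was higher and 1 lower at an unadjusted p under 0.05, against 0.89 and 0.81% of all genes. The intestinal values depended on which library was present: without shMdr1 or shCD8 small intestine Asbt-/-, 22 of the cell cycle genes were called, against 34.2 and 34.1% of all genes. Without shMdr1 or shCD8 small intestine Asbt+/+ 5 were, against 7.55 and 7.42%, and without both of these 5 were, against 7.51%, each time on the 1 remaining intestinal pair and the spread of spleen. The difference of the hairpin effect likewise gave 15 calls without shMdr1 or shCD8 small intestine Asbt-/-, against 26.2% of all genes each time. It gave 2 without shMdr1 or shCD8 small intestine Asbt+/+, against 4.71 and 4.56%, and 3 without both, against 4.64%.

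Other genes of the cycle were taken from 6 lists, and none of their members passed the edgeR test in the comparisons of tissue or of host within a tissue. Of 49 tested among 50 further mitotic genes, 46 were lower in intestine than in spleen in the fit (median -1.42), and 11 were lower and none higher at an unadjusted p under 0.05, against 3.68 and 4.77% of all genes. Cdc25b, a phosphatase that activates CDK1, was at 62.0 to 101 CPM in spleen and 22.0 to 46.7 CPM in intestine (log2 fold change -1.42 ± 0.35, edgeR adjusted p = 0.139). Incenp, the scaffold of the Aurora B complex, was at 57.6 to 91.1 CPM in spleen and 24.2 to 30.3 CPM in intestine (-1.39 ± 0.35, adjusted p = 0.148), and neither gene overlapped between tissues. Of 42 tested among 44 further replication genes, 30 were lower in intestine, median -0.49, as were 5885 of all 10000 genes, median -0.17. At an unadjusted p under 0.05, 1 was lower and none higher, a share below those of all genes.

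Of the further replication genes, Cdc45, a subunit of the active helicase, was at 25.8 and 19.7 CPM in spleen of Asbt+/+ hosts, 2.20 and 1.43 in Asbt-/- spleen, 0 and 0 in Asbt+/+ intestine, and 17.7 and 21.5 in Asbt-/- intestine. It was among the further replication genes with the smallest p for host in both tissues and had the arrangement of Mcm4 (edgeR adjusted p = 0.624 in intestine and 1 in spleen). Host medians of the further mitotic genes were 2.64 in intestine, with 45 of 49 above 0, and -1.05 in spleen, with 42 of 49 below 0. Those of the further replication genes were 0.71, with 32 of 42 above 0, and -0.67, with 32 of 42 below 0.

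Brakes and inputs of the cycle went both ways. Cdkn1a, the CDK inhibitor p21, was at 17.02 to 49.8 CPM in spleen and at 174, 69.5, 109 and 102 CPM in intestine, higher in all 4 intestinal libraries (log2 fold change 1.89 ± 0.37, edgeR adjusted p = 0.0563), just short of the threshold. Gadd45b, a stress gene of the damage checkpoint list, was at 130.1 to 239 CPM in spleen and 292 to 507 CPM in intestine (1.20 ± 0.26, adjusted p = 0.0845), again without overlap. Klf2, a factor of T cell quiescence, was at 564 to 1001 CPM in spleen and at 265, 369, 593 and 772 CPM in intestine, and Tob1, an antiproliferative gene, was at 54.6 and 16.96 CPM in intestine of Asbt+/+ hosts against 256 and 286 in intestine of Asbt-/- hosts (host effect 3.13 ± 0.54, edgeR adjusted p = 0.624). Tob1 and Klf2 thus had the same direction of the intestinal host difference as the cell cycle genes. In the list of 16 CDK inhibitors and quiescence genes, 14 were tested and the tissue median was -0.35, and the host medians were 0.16 in intestine, with members from -4.94 to 3.13, and 0.03 in spleen. The list of G1 cyclins and growth inputs (8 of 9 tested) had medians of 0.15 for tissue, 0.14 for host in intestine and -0.50 for host in spleen, and Ccnd2, a D cyclin, ranged from 132 to 223 CPM with overlapping tissues (log2 fold change 0.28 ± 0.26, edgeR adjusted p = 0.824). Ccnd1, another D cyclin, had 10 and 28 counts in intestine of Asbt+/+ hosts and none in intestine of Asbt-/- hosts, against the direction of the cell cycle genes (edgeR adjusted p = 0.624), and at most 1 count in any spleen library. Medians of the E2F, B-Myb and FoxM1 factors (12 of 15 tested) were -0.40 for tissue, 1.45 for host in intestine and 0.02 for host in spleen, and those of the damage checkpoint list (16 of 18 tested) were -0.50, 1.44 and -0.32.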

How the data were processed

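The files hold raw read counts per gene, deposited by the authors as 1 column of whole numbers per library. TopHat, HTSeq, DESeq2 and the mouse build mm9 are named per the submitters' processing notes, without versions or roles. Libraries were made with SMART-Seq v4 and NEBNext Ultra II kits per the labels' protocols. No annotation or strand setting was found in the labels, so overlapping and antisense genes are uncertain. The hairpin was taken from sample titles, because the retrovirus field names shMdr1 for all 8 libraries. The members and lists were chosen with earlier results of these data known.

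Of 37411 genes, 17570 had a count, and filterByExpr of edgeR 4.0.16 (R 4.3.3) kept 10000, with 99.5% of the counts. TMM-scaled counts were fitted by quasi-likelihood, with Benjamini-Hochberg adjustment at 0.05. An additive fit gave the tests of tissue, hairpin and host (4 residual degrees of freedom). Effects within a tissue came from a fit with separate effects (2 residual degrees of freedom). Both had fewer when libraries were left out. The SE is the absolute log2 fold change over the square root of F, which is approximate. CPM uses the total of all counts. Log2 ratios of pairs used a prior count of 2. The code was tested on simulated data. Within each role, up to 4 genes by mean CPM were shown in full, and genes named from pathway lists were among the 2 with the smallest p of their list in a comparison, where none passed. A result that this rule would name is not reported here. Alternatives were DESeq2 1.42.0 (its size factors, and its Wald test), limma-voom (limma 3.58.1), no filter, no covariates, a block for matched pairs of libraries, leaving out libraries, and leaving out hemoglobin, mitochondrial and Rn18s-rs5 counts. Promoter sequences come from RefSeq. No protein sequences were used.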

Additional observations from a re-analysis of the deposited data

Results flagged for a closer look

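The host difference of the cell cycle genes went opposite ways in the 2 tissues in every matched pair of libraries. The median log2 ratio of the S phase genes (Asbt-/- over Asbt+/+) was 0.84 in the shMdr1 and 1.61 in the shCD8 pair of small intestine, and -1.07 in the shMdr1 and -0.68 in the shCD8 pair of spleen. The median of the mitotic genes was 1.46 and 2.24 in small intestine and -1.32 and -1.13 in spleen, in the same order. These medians were set aside for a closer look because all pairs of 1 tissue lie on the side of 0 opposite to all pairs of the other; the difference of the medians was not tested. For single genes the difference was tested in the edgeR fit, and none of the 45 passed (smallest adjusted p = 0.937).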

How the results depend on the processing

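The direction of the S phase and mitotic medians for tissue, and for host within each tissue, held under each alternative run, except that the S phase tissue median was 0.00 without 1 library. The numbers of calls did not hold, and why was not tested beyond what follows. Leaving out 1 library from the fit with separate effects takes the spread from the other tissue and assumes the lone library varies alike. Genes called for tissue were 62, and 165 without the filter, 257 by DESeq2, 39 without both small intestine Asbt+/+ libraries and 11 to 137 with each library left out; 3 and 2 of the cell cycle genes were called without the filter and by DESeq2. For hairpin the count of genes was 0, and 9 without the filter and 4 by DESeq2; for host it was 0, and 14, 4 and, with each library left out, 0 to 4. Against 0 genes in every effect within a tissue, DESeq2 called 59 genes (2 of the cell cycle genes) for host in intestine, 17 for host in spleen, 21 (3) for the difference of host effects, 26 for hairpin in intestine, 3 for hairpin in spleen and 1 for the difference of hairpin effects. Without both small intestine Asbt+/+ libraries, 136 genes (11 of the cell cycle genes) were called for host in spleen, 811 (5) for hairpin in intestine, 76 for hairpin in spleen and 501 (3) for the difference of hairpin effects; host in intestine could not be fitted. With each library left out, genes called were 6 to 4144 (0 to 26 of the cell cycle genes) for host in intestine, 1 to 146 (0 to 11) for host in spleen, 0 to 3256 (0 to 29) for the difference of host effects, 1 to 3776 (0 to 22) for hairpin in intestine, 1 to 85 for hairpin in spleen and 1 to 2902 (0 to 15) for the difference of hairpin effects.

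Medians with each library left out were -0.23 to 0.52 (S phase) and -0.077 to 1.17 (mitotic) for hairpin, 1.57 to 2.85 (mitotic) for host in intestine, -0.90 to -0.61 (S phase) for host in spleen, 2.47 to 3.30 (mitotic) for the difference of host effects, 0.00 to 0.16 (S phase) and 0.42 to 1.22 (mitotic) for hairpin in intestine, 0.21 to 0.46 (S phase) for hairpin in spleen and 0.25 to 0.96 (mitotic) for the difference of hairpin effects. For hairpin in intestine, DESeq2, limma-voom and the fit without both small intestine Asbt+/+ libraries gave S phase medians of 0.10, 0.15 and 0.16 and mitotic medians of 1.22, 0.45 and 0.61; the mitotic median of the difference of hairpin effects was 0.41 by limma-voom and 0.27 without both libraries. As means of log2(CPM + 1), the intestinal host ratios were 1.23 (S phase) and 1.65 (mitotic) instead of 0.86 and 1.00, and the S phase ratio was 0.73 to 0.99 with each library left out. Without hemoglobin, mitochondrial and Rn18s-rs5 counts, the spleen ratios were -0.79 and -0.78. Chosen after seeing the data were the tissue difference of the mitotic to S phase ratio in other genes (-0.59) and the counts of genes whose groups do not overlap under other scalings or fewer libraries (32 in intestine without shCD8 small intestine Asbt+/+). The labels give no replicate numbers that pair libraries. A block for libraries matched on the other factors gave 54 genes called for tissue and 0 for hairpin and host. With 1 library per combination, genes under about 3 counts in intestine of Asbt+/+ hosts cannot be told from absent.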
